A study of Mus musculus with 16 samples.

Results

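Glucocorticoid signalling was followed in ear skin through 8 genes: Nr3c1, which encodes the glucocorticoid receptor, Hsd11b1, which encodes an enzyme that supplies the hormone inside cells, and 6 genes that the receptor is known to induce, Fkbp5, Tsc22d3, Sgk1, Zbtb16, Klf9 and Ddit4. They were taken as a list by name, with earlier results of these data known, and all 8 matched 1 identifier each among the 45706 genes of the deposited table. In mice the main hormone is corticosterone, which binds the receptor in the cytoplasm and sends it to the nucleus, where it occupies response elements and raises or lowers the transcription of its targets. Hsd11b1 converts the inactive keto form of the hormone back into corticosterone within the tissue. In skin, glucocorticoids are known for restraining inflammation and cell division and for thinning the dermis.

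The material was ear tissue of 8 male mice of the inbred strain C57BL/6J, without any genetic change or treatment. Each mouse, named here by its number (13, 14, 21, 29, 43, 50, 64 or 75), had one ear clipped at 24 months and the other ear clipped at 30 months. By the labels the animals were 23.8 to 24.4 months old at the earlier clip and 29.0 to 30.1 months old at the later one, named young and old there, although the first biopsy is also from an aged animal. The resulting 16 libraries form 8 pairs from the same animal, and age, ear and calendar time cannot be told apart. Hour of the day, handling, feeding and hormone levels in blood were not used here, and a whole biopsy does not tell fewer cells of a type from less RNA per cell.

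Libraries held 22967222 to 36162431 reads on genes. Levels are given as CPM (counts divided by the scaled library total in units of 1e6 reads), with totals scaled by trimmed means, and the lowest count of any of the 8 genes in any library was 174. All 7 basal keratinocyte markers and 6 of 7 cartilage markers passed the filter on low counts. The 30-month libraries of 2 mice, 29 and 50, stood apart from the rest.

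In the 30-month library of mouse 29, 245 of the 20116 tested genes were higher than in the next highest library by at least 2-fold, and 258 were lower than in the next lowest by as much. In the 30-month library of mouse 50 these numbers were 444 and 2. In the other 14 libraries they were at most 45 and at most 4. The cell types read differently in these 2 libraries as well. In mouse 29 at 30 months the 7 fat cell markers summed to 352 CPM, against 54.2 to 229 in the other libraries. Of these, 4 were highest there, beside 18.4% of all genes, but Lep was lowest, at 1.66 CPM against 2.97 to 18.1 CPM. The 7 T cell markers summed to 67.9 CPM there, against 125 to 269, with 43.1 CPM from Thy1. Of these, 4 were lowest there, beside 17.3% of all genes, while Cd3e, Trac and Cd2 lay within the range of the other libraries. In mouse 50 at 30 months the 7 macrophage markers summed to 1171 CPM, against 265 to 563 elsewhere. For this reason the fitted changes of the 8 genes and the counts of the other pathway lists are given with and without mouse 29. Values without mouse 50 are given for some of them only.

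**Figure D1:**
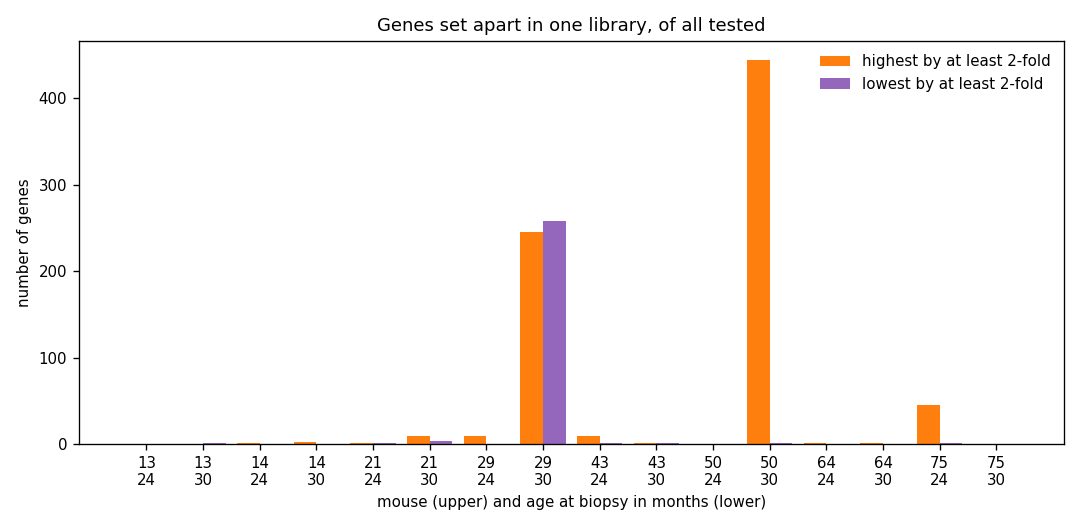
Number of genes (vertical axis) that were at least 2-fold above the next highest library (orange) or at least 2-fold below the next lowest (purple), for each library, ordered by mouse and age at biopsy. Mouse 29 at 30 months had 245 and 258 such genes, and mouse 50 at 30 months had 444 and 2.

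The 8 genes were expressed at both ages and in every library. Per kilobase of exon, the mean level at 24 months was highest for Tsc22d3 (38.9 ± 7.75 RPKM, CPM per kilobase, SD, n = 8). Ddit4 (32.6 ± 5.06 RPKM) and Sgk1 (31.8 ± 2.38 RPKM) came next, and these first 3 did not differ beyond their spread. Nr3c1 followed with 26.3 ± 1.87 RPKM, then Klf9 with 10.53 ± 2.41 and Fkbp5 with 8.05 ± 2.38, which overlapped each other. Zbtb16 (5.01 ± 1.32 RPKM) and Hsd11b1 (2.11 ± 0.549 RPKM) were lowest. Between mice at 24 months, Nr3c1 and Sgk1 varied least, with coefficients of variation of 7.11% and 7.49%. The other 6 varied by 15.5% (Ddit4) to 29.6% (Fkbp5). Counting error alone was at most 7.58%, for the lowest count of Hsd11b1, so that most of this spread lies between biopsies.

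Between 24 and 30 months, none of the 8 genes passed the threshold of an adjusted p of 0.05 in the paired test over all genes (edgeR's quasi-likelihood test, blocked by mouse), and neither did any other of the 20116 genes (0%). An unadjusted p under 0.05 was reached by 2454 genes (12.2%), of which 971 (4.83%) were higher and 1483 (7.37%) lower at 30 months. Among the 8 glucocorticoid genes, 2 were in the first group, Sgk1 and Hsd11b1, and none in the second. DESeq2's Wald test, run as an alternative, called 236 of 34054 genes (0.693%), among them Sgk1. Endothelial markers moved in the same direction as these 2 genes. Of 7, 5 had an unadjusted p under 0.05 and were higher at 30 months, beside 4.83% of all genes. Without mouse 29 this held for 4, beside 3.34%. The 7 markers summed to 110 to 161 CPM at 24 and 117 to 327 CPM at 30 months. Their part in the levels of Sgk1 and Hsd11b1 was not tested.

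**Figure D2:**
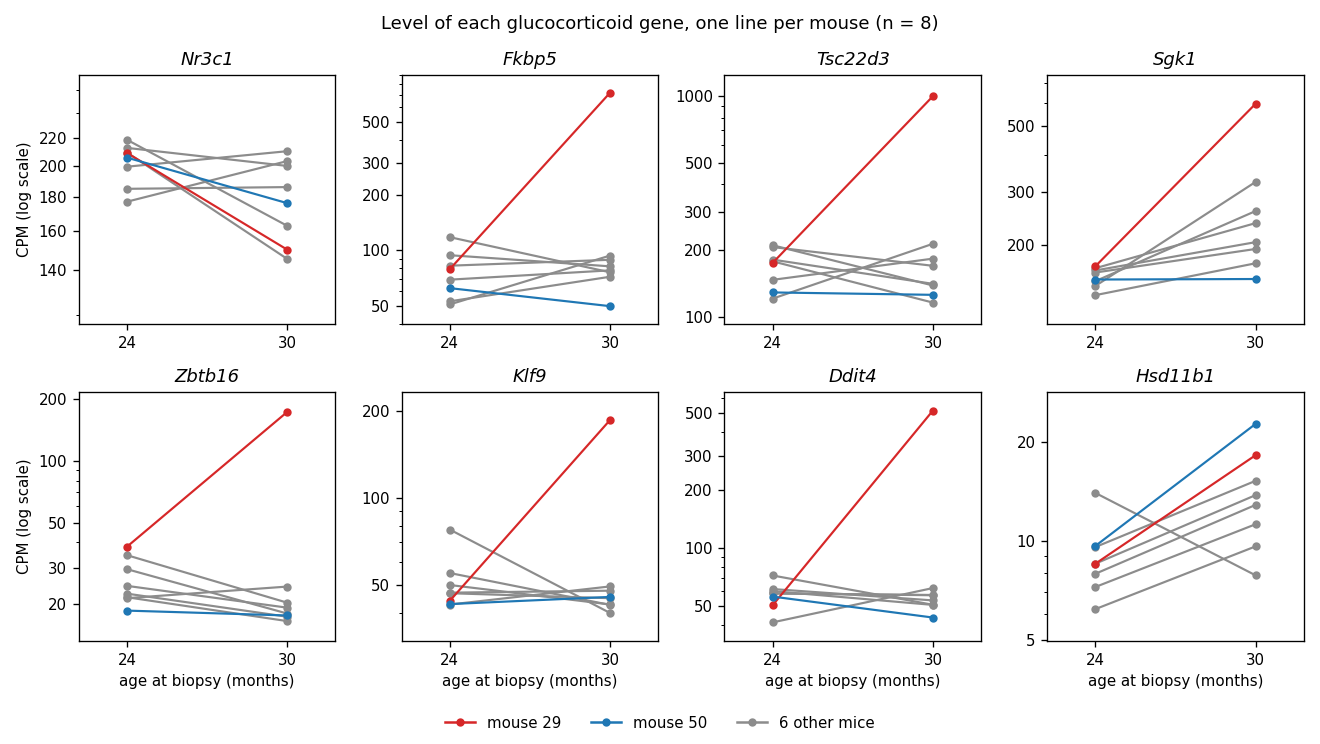
Level of the 8 genes in CPM on a log axis at 24 and 30 months, one line per mouse, with mouse 29 in red, mouse 50 in blue and the other 6 mice in grey. Mouse 29 leaves the other mice at 30 months for 6 genes and not for Nr3c1 or Hsd11b1, while Sgk1 is higher at 30 months in 8 of 8 mice, by under 1 CPM in mouse 50.

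The receptor gene Nr3c1 (ENSMUSG00000024431, GRCm38 chromosome 18, 39410545 to 39519421) was the steadiest of the list. Its lowest, median and highest level was 177, 208 and 219 CPM at 24 months and 145, 181 and 210 CPM at 30 months, so that the ages overlapped. The means were 202 ± 14.4 and 179 ± 24.9 CPM (SD, n = 8 each). Within mice it was lower at 30 months in 5 of 8, most in mouse 21 (209 and 145 CPM), mouse 29 (209 and 150 CPM) and mouse 13 (219 and 163 CPM). The fitted log2 change was -0.18 with a standard error of 0.09 and an adjusted p of 0.445 by edgeR, and -0.14 without mouse 29. Mouse 29 at 30 months, where the targets of the receptor were highest, therefore held one of the lowest levels of the receptor's own transcript, rank 15 of 16 from the top.

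Hsd11b1 (ENSMUSG00000016194, chromosome 1, 193221634 to 193264075) was the least expressed of the 8 genes. It was higher at 30 than at 24 months in 7 of 8 mice, a count that 6.53% of all genes reached. Its lowest, median and highest level was 6.22, 8.55 and 14.01 CPM at 24 months and 7.88, 13.3 and 22.7 CPM at 30 months. Both the highest value at 24 months and the lowest at 30 months came from mouse 43, the only animal in which the gene was lower at the second biopsy. The 24-month library of mouse 43 also held the highest summed fat cell markers (197 CPM) and skeletal muscle markers (8310 CPM) of that age, and their part was not tested. In the other 7 mice the log2 difference lay between 0.63 and 1.23, from mouse 14 and mouse 75 at the lower end to mouse 50 at the upper. The fitted log2 change was 0.61 with a standard error of 0.19 (95% interval 0.18 to 1.04), with a p of 0.00962 and an adjusted p of 0.282 by edgeR. Without mouse 29 it was 0.54 and without mouse 50 it was 0.52. The highest level, 22.7 CPM, belonged to the 30-month library of mouse 50, the one with the highest summed macrophage markers and, at 14054 CPM against 2583 to 7468 elsewhere, the highest summed fibroblast markers. The part of either cell type in the level of Hsd11b1 was not tested.

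Sgk1 (ENSMUSG00000019970, chromosome 10, 21882184 to 21999903), which encodes a serum- and glucocorticoid-regulated kinase acting on ion channels and cell survival, was higher at 30 months in 8 of 8 mice, as were 1.09% of all genes. At 24 months its lowest, median and highest level was 136, 157 and 170 CPM, and at 30 months 154, 221 and 596 CPM. In 7 of the 8 mice the 30-month library lay above every 24-month library, and the exception was mouse 50, with 153 CPM at 24 and 154 CPM at 30 months. Mouse 29 was the highest with 596 CPM, followed by mouse 75 with 326 CPM, mouse 43 with 260 CPM and mouse 64 with 237 CPM. The fitted log2 change was 0.64 with a standard error of 0.18 (95% interval 0.25 to 1.04), with a p of 0.00466 and an adjusted p of 0.260 by edgeR. Without mouse 29 it was 0.48 with a standard error of 0.13, and the interval, 0.20 to 0.76, stayed above 0. Without mouse 50 the log2 change was 0.74. DESeq2's Wald test gave a log2 change of 0.65 and an adjusted p of 0.0242, and over all alternatives the adjusted p ranged from 0.0242 to 0.529. The two-sided exact sign-flip test gave a p of 0.00781 (adjusted p = 0.2705), the smallest that 8 pairs allow. Any gene higher in 8 of 8 mice has this p, so it adds nothing to that count.

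The glucocorticoid response element is an inverted repeat with 3 free bases between its arms. The search covered 32851 RefSeq promoter windows (assembly GRCm38.p6, 250 bases before to 50 after a transcription start). All shares given are of these windows only. Among them were 13 windows for 6 of the 8 genes, and 26 windows for 22 of 27 further genes known to be induced by glucocorticoids. The remaining genes of either list had no window in the search, which does not show that RefSeq holds none for them. Among them was Nr3c1, which lies on the chromosome left out. The full element, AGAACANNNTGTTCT, reads the same on both strands and was found in 3 of 32851 windows (0.00913%). One of the 3 was a promoter of Sgk1, which has 6 annotated starts in these windows. The looser core GNACANNNTGTNC, which the full element contains, was found in 156 windows (0.475%), among them those of Trim63 and Mt1. These 3 promoter stretches are shown because they carry the full element (Sgk1) or the looser core (Trim63 and Mt1) and belong to genes whose levels are described here. Capitals mark the full element in Sgk1 (chr10:21993640-21993889, plus strand, bases -250 to -1 from the start, element at -189 to -175) and the core in Trim63 (chr4:134314888-134314948, plus strand, core at -208 to -196) and Mt1 (chr8:94178971-94179031, plus strand, core at -94 to -82).
Sgk1: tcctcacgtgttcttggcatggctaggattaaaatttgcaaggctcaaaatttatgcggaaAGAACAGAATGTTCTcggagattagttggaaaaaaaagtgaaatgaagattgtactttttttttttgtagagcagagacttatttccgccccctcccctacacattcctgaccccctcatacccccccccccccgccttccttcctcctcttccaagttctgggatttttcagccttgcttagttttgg
Trim63: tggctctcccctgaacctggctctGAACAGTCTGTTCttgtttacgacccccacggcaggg
Mt1: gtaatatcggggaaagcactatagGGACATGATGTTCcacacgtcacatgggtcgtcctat

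The windows of Fkbp5, Tsc22d3, Klf9, Ddit4 and Hsd11b1 did not hold the core. One arm alone, AGAACA on either strand, was present in 1 of 3 Tsc22d3 windows and in 3 of 6 Sgk1 windows, beside 19% of all windows. A match gives letters in the reference genome and is no measurement of binding in these biopsies. Within mouse 29, Sgk1 was 3.52-fold, Trim63 8.87-fold and Mt1 2.50-fold higher at 30 than at 24 months, and Fkbp5 and Ddit4, without the core in their windows, were 9.11-fold and 10.2-fold higher.

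The remaining 5 induced genes were 4.22-fold to 10.2-fold higher at 30 than at 24 months in mouse 29. In the other 7 mice they differed in both directions and by less than 2-fold, from 0.515-fold (Klf9 in mouse 43) to 1.84-fold (Fkbp5 in mouse 75). Fkbp5 (ENSMUSG00000024222, chromosome 17, 28399094 to 28517527) encodes a co-chaperone that lowers the receptor's affinity for the hormone and is a widely used readout of receptor activity. At 24 months its lowest, median and highest level was 50.9, 74.3 and 118 CPM. At 30 months it was 78.0, 76.1, 82.0, 89.0, 49.8, 72.0 and 93.8 CPM in mice 13, 14, 21, 43, 50, 64 and 75, and 721 CPM in mouse 29. That value was 6.10 times the highest of the other 15 libraries. The fitted log2 change was 0.38 with a standard error of 0.35 over 8 mice and 0.06 with a standard error of 0.16 without mouse 29.

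Ddit4 (ENSMUSG00000020108, chromosome 10, 59949669 to 59951834), which encodes an inhibitor of the growth-promoting kinase complex mTORC1 and also answers to hypoxia and energy shortage, showed the largest fold of the list within mouse 29, 10.2. It lay between 41.2 and 72.2 CPM in 15 libraries and at 518 CPM in mouse 29 at 30 months, 7.17 times the highest of the others. Before, in the same mouse at 24 months, it was 50.6 CPM, inside the range of the other 24-month libraries. Leaving out mouse 29 took the fitted log2 change from 0.23 (standard error 0.37) to -0.11 (standard error 0.12), and the gene was then lower at 30 months in 6 of 7 mice.

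Tsc22d3 (ENSMUSG00000031431, chromosome X, 140539528 to 140600659) encodes the leucine zipper protein GILZ, through which glucocorticoids restrain inflammatory signalling. It was at 999 CPM in mouse 29 at 30 months, against 175 CPM in this mouse at 24 months and 116 to 214 CPM in the other 30-month libraries. Mouse 64 had the next largest difference, from 121 to 214 CPM, and in 5 of the other 7 mice the gene was lower at 30 months. The fitted log2 change was 0.17 with a standard error of 0.31, and -0.11 with a standard error of 0.17 without mouse 29.

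Klf9 (ENSMUSG00000033863, chromosome 19, 23141226 to 23168134), a transcription factor that also follows the daily corticosterone rhythm in epidermis, was at 44.0 CPM in mouse 29 at 24 months and 186 CPM at 30 months. The other 30-month libraries held 39.9 to 49.4 CPM, a narrower range than the 42.7 to 77.6 CPM at 24 months, where the highest value belonged to mouse 43. Zbtb16 (ENSMUSG00000066687, chromosome 9, 48654297 to 48836222), which encodes the zinc finger repressor PLZF, was at 38.2 and 172.5 CPM in mouse 29 and at 16.6 to 24.4 CPM in the other 30-month libraries. In the 7 mice without number 29, Zbtb16 was lower at 30 months in 6, with means of 24.8 ± 5.56 and 19.1 ± 2.65 CPM (SD). Its fitted log2 change was then -0.36 with a standard error of 0.12, with a p of 0.0127 and an adjusted p of 0.411 by edgeR, while 9.61% of 20130 genes had a p under 0.05 without this mouse. Over 8 mice it was -0.07. For Klf9 the fitted values were 0.07 over 8 mice and -0.18 without mouse 29.

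**Figure D3:**
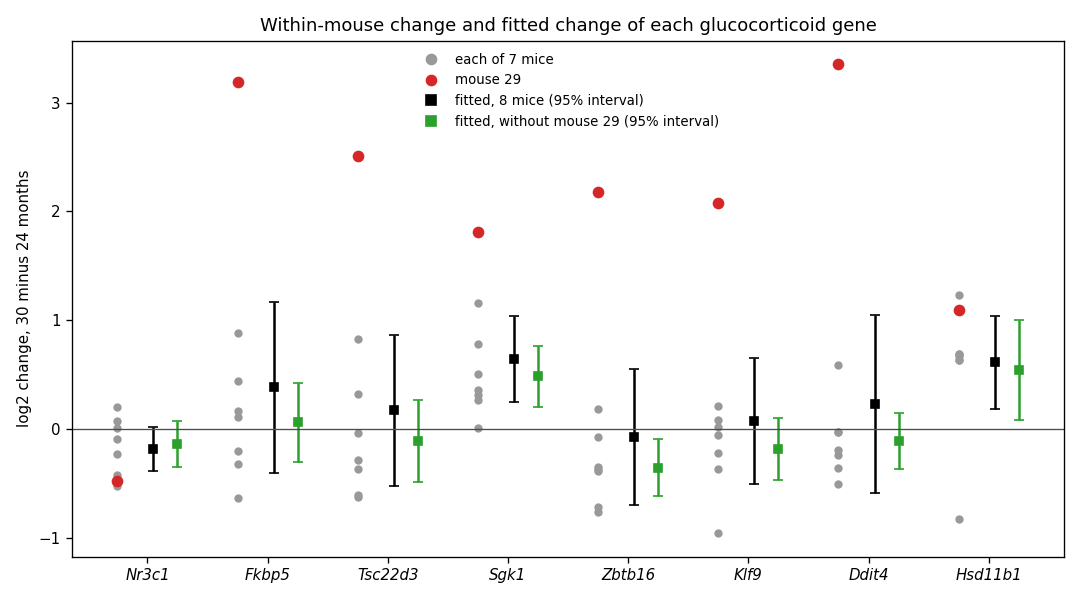
Difference of log2 CPM between 30 and 24 months for the 8 genes, as grey points for 7 mice and a red point for mouse 29, beside the fitted change with its 95% interval over 8 mice (black squares) and without mouse 29 (green squares). Without mouse 29 the intervals of Sgk1 and Hsd11b1 stay above 0, that of Zbtb16 lies below 0, and the other 5 include 0.

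Within mouse 29, 7 of the 8 genes were at least 2-fold higher at 30 than at 24 months, as were 5.30% of all genes tested. The exception was Nr3c1, at 0.717-fold. In each of the other 7 mice at most 1 gene of the list was at least 2-fold higher, Hsd11b1 in mouse 50 and Sgk1 in mouse 75, and none was at least 2-fold lower. Seen across the 16 libraries, 6 of the 8 genes were highest in mouse 29 at 30 months, beside 18.4% of all genes. For 5 of them, all but Sgk1, the distance to the next library was at least 2-fold, beside 1.22% of all genes. This library was singled out after its values had been seen, so these counts describe it and test nothing. In the 24-month library of the same mouse the 8 genes summed to 774 CPM, in a range of 658 to 840 CPM, against 3360 CPM at 30 months and 635 to 935 CPM in the other 30-month libraries. Zbtb16 (38.2 CPM) and Sgk1 (169.5 CPM) were at their highest 24-month level in that mouse.

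A list of 27 further genes known to be induced by glucocorticoids, also chosen with earlier results known, was mostly high in this library too. Of these, 24 were highest in mouse 29 at 30 months, beside 18.4% of all genes, and 10 by at least 2-fold, beside 1.22%. The summed level was 5663 CPM against 2290 to 2935 CPM in the other 15 libraries. The median difference within mouse 29 was 2.19-fold, beside 0.998-fold over all genes tested. In the other mice the median log2 difference of the list lay between -0.03 and 0.25. The genes that stood out belonged to several functions and were picked for naming after their values were seen.

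Among metabolic targets, Angptl4, an inhibitor of lipoprotein lipase, was at 77.2 CPM, against 2.08 to 5.86 CPM in the other 15 libraries. Pdk4, which turns cells from glucose to fatty acid oxidation, was at 156 CPM against 5.58 to 47.0 CPM, and the glutamine synthetase gene Glul at 996 CPM against 191 to 288 CPM. Fat cell markers were also at their highest sum in this library, although Lep was at its lowest. The part of fat cells in the levels of Angptl4 and Pdk4 was not tested. Among signalling targets, Errfi1, an inhibitor of the EGF receptor, was at 316 CPM against 59.5 to 116 CPM, and Rasd1, a small GTPase first known as induced by dexamethasone, at 26.4 CPM against 1.89 to 5.93 CPM. The clock gene Per1, which carries response elements for the receptor, was at 387 CPM against 64.6 to 158 CPM, and the transcription factor Klf15 at 62.4 CPM against 10.4 to 19.1 CPM.

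The other 3 of the 27 were not highest there. Dusp1, which encodes a phosphatase of MAP kinases, was at 81.8 CPM in mouse 29 and highest, at 221 CPM, in mouse 14 at 30 months. Cdkn1c was at 29.8 CPM, within the range of the other libraries, 21.7 to 34.7 CPM. Cd163, a scavenger receptor of macrophages, was at 95.04 CPM, just under the 96.2 CPM of mouse 75 at 30 months.

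**Figure D4:**
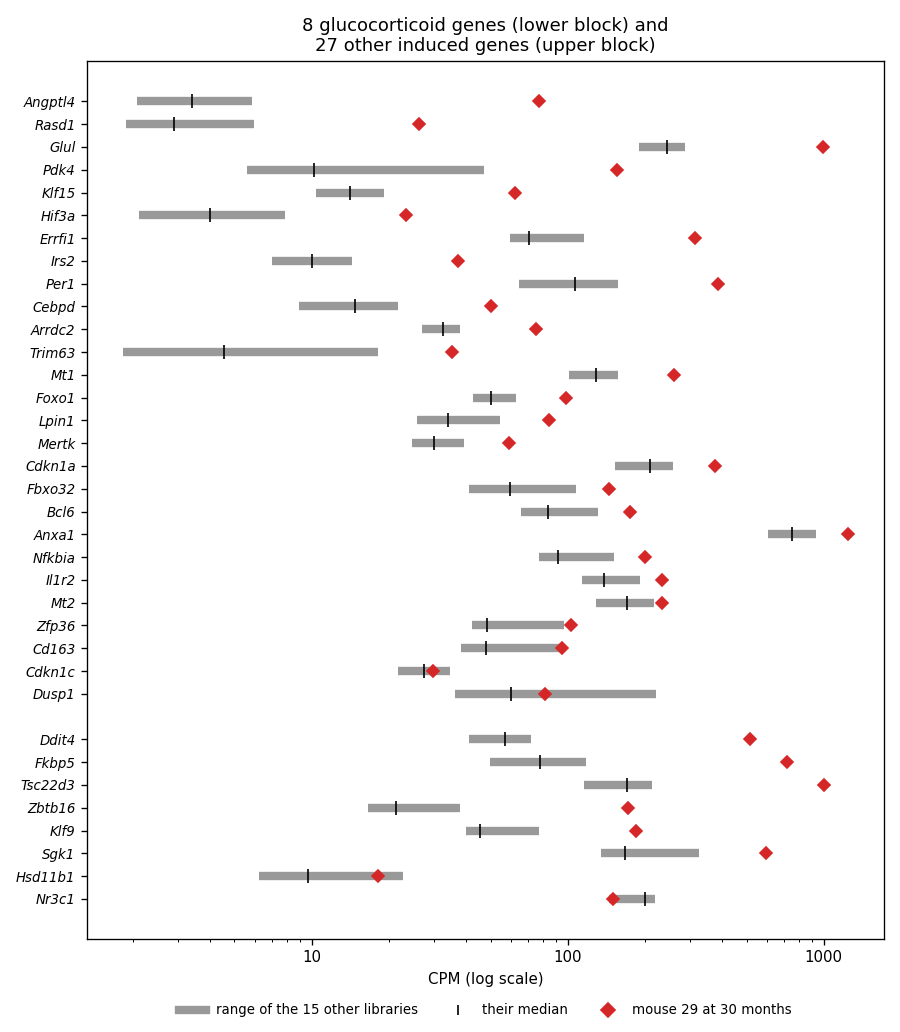
Level in mouse 29 at 30 months (red diamonds) against the range of the other 15 libraries (grey bars, black tick at their median) in CPM on a log axis, for the 8 glucocorticoid genes in the lower block and 27 other induced genes in the upper block. The diamonds lie to the right of the bars for 6 of 8 and 24 of 27 genes, beside 18.4% of all genes tested, and left of the median for Nr3c1.

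Across all 8 mice the list of 27 induced genes had 6 members with an unadjusted p under 0.05, all higher at 30 months, beside 4.83% of all genes, and none past the adjusted threshold. Its median log2 change was 0.25 over 8 mice and 0.09 without mouse 29, where all genes had medians of 0.01 and 0.01. Without mouse 29, 6 members had such a p in the higher direction (3.34% of all genes) and 1 in the lower (6.26%). By the rule of smallest p, the members to name are Dusp1, Il1r2, Zfp36 and Mt2. Dusp1 had a log2 change of 0.91 (standard error 0.14, adjusted p = 0.122 by edgeR). Without mouse 29 the change was 0.88, and all 8 mice had more of it at the second biopsy. Zfp36, which encodes an mRNA-destabilizing protein, was higher in 8 of 8 mice as well, with a log2 change of 0.39 and 0.31 without mouse 29. Il1r2, the decoy receptor of interleukin-1, and Mt2, a metallothionein, were higher in 7 of 8 mice, with log2 changes of 0.33 and 0.30, and 0.25 and 0.22 without mouse 29. Dusp1 and Zfp36 are also immediate-early genes, and 8 of the 14 genes in a separate list of such genes had an unadjusted p under 0.05, all higher at 30 months, with and without mouse 29, beside 4.83% and 3.34% of all genes.

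That list had a median log2 change of 0.33, and 0.34 without mouse 29. Its genes with the smallest p were Junb (0.50), Ier3 (0.47), Egr1 (0.86) and Fos (1.56), each a log2 change with the gene higher in 8 of 8 mice and no adjusted p under 0.127 by edgeR. Without mouse 29 these were 0.50, 0.43, 0.87 and 1.69. The library that led here was that of mouse 14 at 30 months, with a summed level of 1329 CPM, against 852 CPM in mouse 29 and 437 to 696 CPM elsewhere. Fos was at 288 CPM in mouse 14 and at 11.9 CPM in mouse 29. By summed level, the library highest for the glucocorticoid genes and the one highest for the early genes were thus from different animals. Of the 14 early genes, 5 were highest in mouse 29 at 30 months, beside 18.4% of all genes. By at least 2-fold this held for 1 (Btg2, 205 CPM against 63.8 to 100 CPM), beside 1.22% of all genes. Fosb alone was lowest there, beside 17.3% of all genes.

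Of 22 genes for the receptor's chaperones, cofactors and hormone supply, 20 were tested, and 1 had an unadjusted p under 0.05 in the higher direction (4.83% of all genes) and 2 in the lower (7.37%). Without mouse 29 the counts were 0 and 1 (3.34% and 6.26% of all genes). Without mouse 50 both were 0, while 2397 of all genes had such a p in either direction in that fit. The median log2 change was -0.06, and -0.05 without mouse 29. Fkbp4, the co-chaperone that competes with the product of Fkbp5 on the receptor complex, was lower at 30 months in 8 of 8 mice, as were 1.8% of all genes. Its log2 change was -0.20 with a standard error of 0.08 (adjusted p = 0.345 by edgeR), and -0.13 without mouse 29 and -0.17 without mouse 50, with a p of 0.0468 and 0.0633. Of the 20 genes, 6 were highest and 5 lowest in mouse 29 at 30 months, beside 18.4% and 17.3% of all genes. Fkbp4 was 1 of the 5, at 67.6 CPM against 85.1 to 113 CPM. H6pd, whose enzyme provides the cofactor for Hsd11b1, was highest there, at 49.5 CPM against 20.6 to 36.4 CPM.

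Cyp11b1, the last enzyme of corticosterone synthesis, had a log2 change of -0.61 (standard error 0.23) at levels of 0.381 to 1.53 CPM. The p of 0.0256 by edgeR became 0.0608 without mouse 29, with a log2 change of -0.50, and 0.0557 without mouse 50, with one of -0.56. Abcb1a, which encodes a drug and steroid exporter, had one of 0.29 (standard error 0.13), and 0.22 without either mouse 29 or mouse 50, with a p of 0.117 and 0.122. The chaperone gene Hspa8 had a log2 change of 0.09. The mineralocorticoid receptor gene Nr3c2, whose product binds the same hormone, lay between 12.03 and 17.2 CPM in all libraries. Its lowest level, in mouse 29 at 30 months, was close to the next lowest, 12.27 CPM.

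Of 12 genes that glucocorticoids are known to repress, mostly cytokines and enzymes of inflammation, 10 were tested, and 1, Nos2, had an unadjusted p under 0.05 in the higher direction, beside 4.83% of all genes. Without mouse 29 none had, and Nos2 had a p of 0.0542. Their median log2 change was 0.50 and 0.49 without mouse 29, at low levels and with 1 library far above the rest: the 12 genes summed to 218 CPM in mouse 50 at 30 months, against 44.8 to 85.0 CPM elsewhere. Without mouse 50 the median was 0.20, and 0 genes had such a p in the higher and 1 in the lower direction. In that fit 2397 of all genes had such a p in either direction. Nos2 had a log2 change of 1.17 (standard error 0.49), Cxcl1 one of 0.88 and Ccl5 one of 1.28, and Mmp13 one of 0.86, and each was higher at 30 months in 6 of 8 mice. Nos2, Cxcl1 and Ccl5 were highest in that library of mouse 50, with Ccl5 at 75.4 CPM against at most 4.48 CPM elsewhere. Without mouse 50 the log2 changes of the 4 genes were 0.78, 0.50, 0.62 and 0.55, with a p of 0.123 for Nos2. In mouse 29 at 30 months the sum was 59.9 CPM, within the range of the others. Of the 10 genes tested, 2 were at their lowest of all libraries there (Tnf at 1.35 CPM and Ptgs2 at 0.694 CPM), beside 17.3% of all genes. At its highest was 1 (Il1a at 19.1 CPM, against 10.5 to 16.4 CPM), beside 18.4% of all genes. Within that mouse Il1b was 0.712 CPM at 24 and 2.05 CPM at 30 months, and Nos2 0.463 and 0.867 CPM.

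Because glucocorticoids set clock genes and are themselves released in a daily rhythm, 17 clock genes were read beside the list. Their median log2 change was 0.01, and -0.05 without mouse 29. An unadjusted p under 0.05 was found for 1 in the higher direction (Bhlhe40, 0.28, beside 4.83% of all genes) and 2 in the lower (Dbp, -0.40, and Hlf, -0.25, beside 7.37%), followed by Per3 (-0.24) with a p of 0.0504. Without mouse 29 Dbp had a log2 change of -0.36 and a p of 0.0524 by edgeR, which left 1 gene in the lower direction, beside 6.26% of all genes. Without mouse 50 Hlf had one of -0.20 and a p of 0.0740 by edgeR, which also left 1. In the fit without mouse 50, 2397 of all genes had an unadjusted p under 0.05 in either direction. In mouse 29 at 30 months, 7 of the 17 were at their highest, beside 18.4% of all genes. Among them were the core clock genes Per2 (57.4 CPM against 25.9 to 54.8), Cry2 (168 CPM against 97.4 to 139) and Npas2 (36.6 CPM against 8.32 to 20.6), and also Nfil3 (28.1 CPM against 4.99 to 14.6). Arntl (52.5 CPM), Nr1d1 (199.5 CPM) and the output gene Dbp (40.5 CPM) lay there within the range of the other libraries.

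To see whether the 8 genes moved together from animal to animal, their log2 differences were correlated over the 8 mice, 28 pairs in all. Over 8 mice, 5 pairs passed an adjusted p of 0.05 for Pearson's r by exact permutation, and none for Spearman's rho. All 15 pairs among the 6 induced genes had a positive r, from 0.67 to 0.96. The 5 pairs were Fkbp5 with Tsc22d3, Sgk1 and Ddit4, Tsc22d3 with Ddit4, and Zbtb16 with Klf9. Mouse 29 is 1 point far from 7 others, so a pooled coefficient mostly measures that distance. Among the other 7 mice no pair passed an adjusted p of 0.05 by either measure, and the 15 coefficients ran from -0.30 to 0.82 with a median of 0.24.

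For Fkbp5 and Sgk1, Pearson's r was 0.93 over 8 mice (exact permutation p = 0.00188, adjusted p = 0.0323) and Spearman's rho 0.91 (p = 0.00456, adjusted p = 0.0639). Without the 2 mice farthest from the median of Fkbp5 r was 0.86, and over the 7 mice other than 29 it was 0.82 (exact permutation p = 0.0234, adjusted p = 0.287). For Fkbp5 and Ddit4 r was 0.96 and rho 0.93 over 8 mice, with adjusted p-values of 0.0432 and 0.0625 by exact permutation. It was 0.57 without the 2 farthest mice and 0.69 without mouse 29, where rho was 0.89. For Zbtb16 and Klf9 r was 0.96 over 8 mice and 0.73 without mouse 29 (adjusted p = 0.392, exact permutation over 7 mice). Fkbp5 and Zbtb16, with r of 0.89 over 8 mice, had -0.21 without the 2 farthest mice, and that relation rests on those animals. Nr3c1 had negative coefficients with all 7 other genes over 8 mice, none past the adjusted threshold, and with 3 of them over 7 mice.

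**Figure D5:**
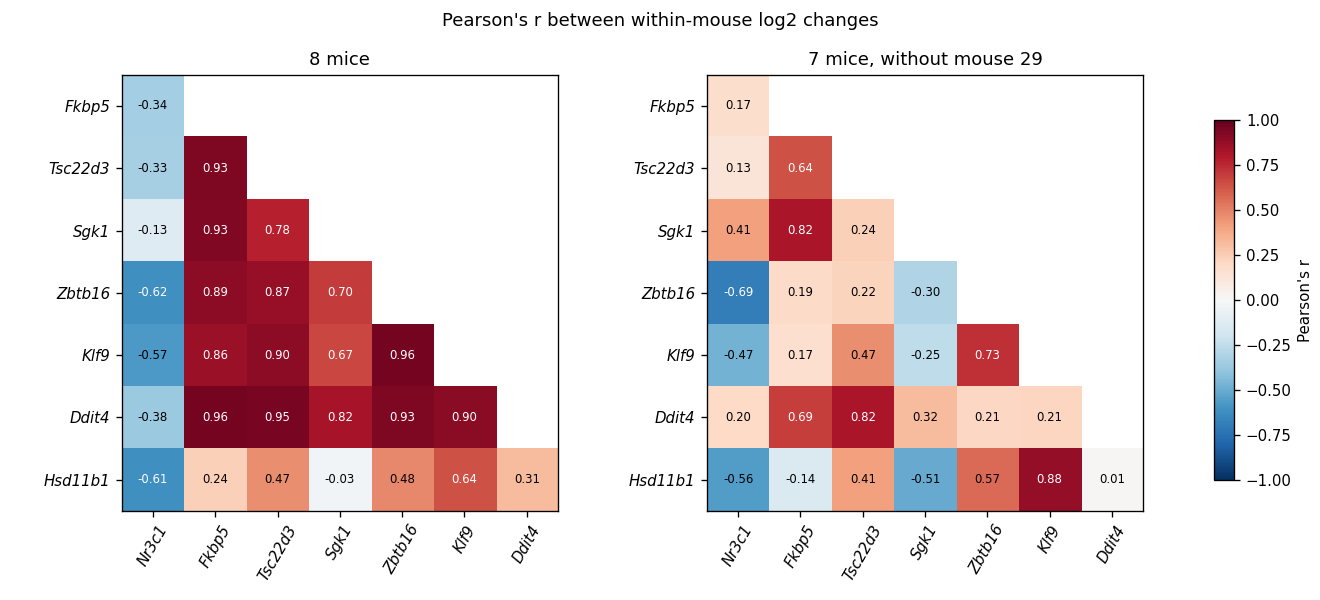
Pearson's r between the log2 differences (30 minus 24 months) of each pair of the 8 genes, over 8 mice on the left and over the 7 mice other than mouse 29 on the right, from -1 (blue) to 1 (red). The 6 induced genes are all positive on the left (0.67 to 0.96) and run from -0.30 to 0.82 on the right.

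Among 17777 genes with a mean of at least 1 CPM, those whose differences over the 8 mice were most like that of Fkbp5 were Spock2, Rnf103 and March5 (Pearson's r 0.98, 0.97 and 0.97). Spock2, a proteoglycan gene, was at 213 CPM in mouse 29 at 30 months against 33.8 to 55.8 CPM in the other libraries. Most like Ddit4 were Zmym5, Slc43a1 and Pik3ip1 (each 0.98), and Pik3ip1, an inhibitor of phosphoinositide kinase signalling, was also among the 3 most like Zbtb16, with Zfp263 and Gm9484 (0.98 to 0.99). Slc43a1, an amino acid transporter gene, was at 136 CPM in that library against 15.8 to 38.1 CPM, and Pik3ip1 at 134 CPM against 36.5 to 57.7 CPM. Spock2, Slc43a1 and Pik3ip1 were highest in that library, as were 18.4% of all genes. Zfp263, at 57.8 CPM, lay within the range of the others, 45.9 to 59.9 CPM. These genes were picked for likeness to members that stand out there, so a high level in that library adds nothing.

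Tsc22d3 was most like Ssbp1, Gde1 and Errfi1 (0.98 each), the last of which is on the list of 27. Klf9 was most like Whamm, Zfp867 and Stard13 (0.98, 0.98 and 0.98) and Sgk1 most like Tex264, Pheta1 and Utp14b (0.97, 0.97 and 0.96). Without mouse 29, 0 of the 3 genes most like a member were shared with those named, for each of the 8 members. Hsd11b1 was most like 2210408F21Rik, Zfp979 and Hs6st2 (0.96, 0.95 and 0.95), and Nr3c1 most like Ints8, Gm14140 and Heph (0.97, 0.95 and 0.95). With 17777 genes searched over 8 points, coefficients of this size are a description of likeness only.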

How the data were processed

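RNA-seq of 16 ear biopsies from 8 mice was analysed. The authors aligned single-end reads with TopHat to GRCm38 (mm10), counted them per Ensembl gene with HTSeq or featureCounts and deposited raw counts per gene, replicates apart. The submitters' processing notes name TopHat2 2.1.0 and HTSeq 0.6.1p1, and the strand setting is not given in the sources used here. No exon base of the 8 genes overlapped another gene's exon. The 5 summary lines, which name no gene and held 18.7% to 21.1% of the reads, were left out, and 0 columns of other samples were present. Symbols, positions and exon lengths came from GENCODE M21, which held 45143 of the 45706 identifiers.

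Counts were tested with edgeR 4.0.16 in R 4.3.3 (TMM scaling, filterByExpr, quasi-likelihood test, 20116 genes) with a term for each mouse, since both libraries of a pair come from 1 animal. After subtracting the mean of each age, the 2 libraries of a mouse had a median r over genes of -0.02, and libraries of different mice one of 0.01. P-values were adjusted by Benjamini-Hochberg, with a threshold of 0.05. Differences of log2 CPM used a prior count of 0.5, and correlations and the sign-flip test (256 sign patterns) were exact and two-sided, in Python 3.11.15 with scipy 1.17.1. P-values of the paired tests measure how the within-mouse difference varied from animal to animal. With 1 biopsy each per age, variation between biopsies and between animals cannot be told apart.

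The genes named are the 8 members, the 3 genes most like each, and from each other pathway list the 4 with the smallest p. Others were named after their values were seen. The 8 genes and all lists were chosen with earlier results of these data known. Alternatives were DESeq2 1.42.0 and its size factors, total counts, no filter, no block, age in months, a prior count of 2 and each mouse left out. The sets of 7 mice, the named genes without mouse 50 and the counts per library were chosen after seeing the data.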

Additional observations from a re-analysis of the deposited data

Results flagged for a closer look

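Of 24 groups of 8 values (each of the 8 genes at 24 months, at 30 months and as the log2 difference), 14 held a value set apart from the nearest other by a gap over Dixon's 95% limit. Chance gives about 1 in 20 for independent groups of normally distributed values. These groups are not independent, since each log2 difference holds the levels at both ages. The rate over all genes was not read, so the count describes and tests nothing. The value set apart came from mouse 29 in 11 of the 14. At 30 months its level stood above the others for Fkbp5 (720.9 CPM), Tsc22d3 (999.4 CPM), Sgk1 (596 CPM), Zbtb16 (172.5 CPM), Klf9 (185.6 CPM) and Ddit4 (517.5 CPM). Its log2 difference did so for Fkbp5 (3.19), Tsc22d3 (2.51), Zbtb16 (2.18), Klf9 (2.08) and Ddit4 (3.36). The other 3 values came from mouse 43, with high levels of Klf9 (77.57 CPM) and Hsd11b1 (14.01 CPM) at 24 months and a log2 difference of Hsd11b1 of -0.83, opposite in sign to the other 7 mice.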

How the results depend on the processing

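The mice are the blocks of the paired test. Without the replicate block 4 genes passed the adjusted threshold in place of 0, none of them among the 8. DESeq2's Wald test, which was blocked by mouse as well, called 236. Among these 236 was Sgk1 (log2 change 0.65), which edgeR's quasi-likelihood test did not call. Without the block Zbtb16 changed sign (0.54), and that fit gave 1.05 for Fkbp5, 0.63 for Tsc22d3, 0.96 for Ddit4 and 0.78 for Sgk1. The cause was not tested. Leaving out each mouse in turn gave log2 changes from -0.11 to 0.30 for Tsc22d3, -0.36 to 0.03 for Zbtb16, -0.18 to 0.22 for Klf9 and -0.11 to 0.34 for Ddit4, which thus changed sign (Tsc22d3, Klf9 and Ddit4 without mouse 29, Zbtb16 without mouse 14 at 0.032 and without mouse 43 at 0.028). The same range was 0.06 to 0.54 for Fkbp5, 0.48 to 0.74 for Sgk1, 0.52 to 0.81 for Hsd11b1 and -0.24 to -0.13 for Nr3c1, which kept their signs. The number of correlated pairs, 5 over all mice and also with a prior count of 2, ran from 0 to 6 (0 without mouse 13 or 29, 1 without 75, 2 without 14 and 3 without 50 or 64). Genes with an unadjusted p under 0.05 numbered 1736 to 3597.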
